A study of Mus musculus with 4 samples.

Results

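The small proline-rich proteins are a family of short keratinocyte proteins, and their transcripts were followed here in the back skin of 10-day-old mice lacking ADAM17 in the epidermis. The family was taken as 10 genes, Sprr1a, Sprr1b, Sprr2a, Sprr2b, Sprr2d, Sprr2e, Sprr2f, Sprr2h, Sprr3 and Sprr4. All array probes annotated to one of these names were kept, which gave 11 of 41174 gene probes. Of the 11, 10 probes for 9 genes were bright enough to test, among 22188 tested probes on the array. The 2 cKO mice carried floxed Adam17 on both alleles together with Krt14-Cre. The 2 control mice did not carry the Cre transgene. Both groups had a mixed 129Sv and C57BL/6 background, and each litter supplied 1 cKO and 1 control mouse. The keratin 14 promoter drives Cre in basal keratinocytes of the epidermis and the outer follicle, and cells descended from them inherit the deletion. Skin cells of other descent kept the gene. As no mouse carried Cre without the floxed alleles, effects of Cre itself and of Adam17 deletion cannot be told apart. The sample was whole skin, in which fewer cells of a type and less RNA per cell cannot be told apart.

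Small proline-rich proteins are precursors of the cornified envelope, the protein shell that replaces the plasma membrane of the dying keratinocyte. Transglutaminases cross-link them through glutamine and lysine residues at their ends, and the proline-rich repeats between the ends act as flexible bridges to proteins such as loricrin. The genes lie side by side in the epidermal differentiation complex, and several of them are known to be induced in stressed, wounded or barrier-deficient epidermis.

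RNA was labelled with Cy3 and hybridised to Agilent whole mouse genome arrays of 60-base probes, 1 array per mouse. Values below are log2 of the processed signal relative to the 75th percentile of all gene spots on the same array. Between 53.7% and 56.6% of gene spots were well above background on each array, and none was saturated. The number of arrays limits the precision: the median standard error was 0.11 on the log2 scale, and an exact permutation test of 2 against 2 arrays cannot give a two-sided p below 0.333. The signal of Adam17 itself in cKO skin was 68.5% and 69.0% of control with its 2 probes, and it was lower in cKO skin in both litters. The labels do not name the floxed exon, and whether these probes lie in the deleted stretch was not tested. Over the whole array, limma placed 35 probes past an adjusted p of 0.05 (0.158% of those tested), and 0 with litter as a block.

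The genes of the cluster are near-identical in places, and the sequences below are shown because some of the probes share long runs of bases with each other and others do not. All of the small proline-rich probes lie on chromosome 3 (mm9). Of the 14 probes for the family, including 3 for genes outside the 10, 5 lay in the proline-rich repeats, as judged by an open frame with at least 40% proline codons. Of these 5, the probes of Sprr2b, Sprr2e and Sprr2k each shared a run of at least 20 bases with both of the other two. The longest run shared with another family probe is in capitals.
Sprr2b, chr3:92121449-92121508: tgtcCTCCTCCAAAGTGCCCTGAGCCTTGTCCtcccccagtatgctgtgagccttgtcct
Sprr2e, chr3:92156847-92156906: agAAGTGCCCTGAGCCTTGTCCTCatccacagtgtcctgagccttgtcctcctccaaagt
Sprr2k, chr3:92237308-92237367: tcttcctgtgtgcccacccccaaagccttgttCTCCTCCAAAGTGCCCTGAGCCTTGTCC
The Sprr2b and Sprr2e probes matched at 36 of 43 overlapped bases (83.7%). The Sprr2b and Sprr2k probes shared a run of 28 bases, and the Sprr2e and Sprr2b probes a run of 22 bases. The Sprr2e probe is listed in the file for Sprr2e and Sprr2i.

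The other probes of the 10 genes lay outside such repeats and resembled no other family probe by more than 49.1%, with shared runs of 7 to 10 bases. The first 30 bases are given for the 4 whose signals carry most of what follows, with no capitals since no long run is shared.
Sprr2d, chr3:92144721-92144780: ttgccaaaaactctcaatcacctttggttt
Sprr2f, chr3:92170259-92170318: atgggtcttgttccattgttcagtatgaca
Sprr2a probe A_52_P18887, chr3:92023258-92023317: agaagtgaccacccaacaggtgaaggcctc
Sprr2a probe A_52_P981257, chr3:92025707-92025766: tacagttgatgtgccagcctgcaccaccta
No other probe on the array shared a run of 20 bases with any of these 4. The file lists both Sprr2a probes for the same 2 genes, Sprr2a1 and Sprr2a2, although the probes are only 46.2% alike.

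The family did not move as one in cKO skin. Sprr2d signal was higher in both cKO mice than in either control. Signals of 1 Sprr2a probe, Sprr4, Sprr1b, Sprr2e, Sprr2b and Sprr1a were lower in both cKO mice than in either control. Sprr2f was higher in cKO skin within each litter but varied more between control litters than between genotypes. No probe of the family passed limma's adjusted p of 0.05 over all tested probes (0 of 10 higher and 0 lower, against 0.027% and 0.131% of all tested probes), so each difference is given as a value with its interval. At an unadjusted p under 0.05 there were 5 of the 10, of which 1 was higher and 4 were lower, against 15.4% of all tested probes. The higher one, Sprr2d, was tested only because both of its cKO arrays were well above background.

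Sprr2d encodes a member of the Sprr2 group and has been described as a target of the antioxidant factor NRF2 in mouse keratinocytes. Its probe read -1.60 in cKO skin of litter 1 and -2.21 in cKO skin of litter 2, against -4.93 and -6.70 in the control skin of the same litters. Both cKO arrays were well above background and neither control array was, with processed signals of 254 and 168 in cKO skin against 24.7 and 7.54 in control skin. The genotypes did not overlap, and the lowest cKO value lay 2.72 above the highest control value. Because the controls were not well above background, the fold on these arrays has only a lower limit, which was 7.12 for Sprr2d. For that limit, the control value of each array was not allowed below the dimmest gene spot called well above background there. The limit holds for this processing only and takes no account of spread between mice. With normexp background correction the log2 difference was 2.22. The measured difference was 3.91 ± 0.64 (SE, 95% interval 2.19 to 5.62, limma adjusted p = 0.135), with 3.32 in litter 1 and 4.49 in litter 2.

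Sprr2f, a member of the Sprr2 group known in mice for its induction by oestrogen in the uterus, was well above background on all 4 arrays. Its level was 1.97 and 0.30 in cKO skin of litters 1 and 2, against 1.06 and -3.43 in control skin. The genotypes overlapped, since the control of litter 1 lay above the cKO mouse of litter 2. Within litters the cKO mouse was higher, by 1.88-fold in litter 1 and 13.2-fold in litter 2. The difference of 2.32 ± 1.62 (SE) had a 95% interval of -2.03 to 6.67 and a limma adjusted p of 0.555. The value rested on the control mouse of litter 2, without which the difference was 0.07. The control litters differed 22.4-fold in this probe and the cKO litters 3.18-fold.

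Sprr2a was read by a pair of probes that differed in their response. The probe A_52_P18887 read -3.10 and -1.14 in cKO skin, against 0.24 in each control. Its signal was thus lower in both cKO mice, 10.1-fold in litter 1 and 2.59-fold in litter 2, with a gap of 1.37 between the genotypes. The difference was -2.36 ± 0.67 (SE, 95% interval -4.16 to -0.56, limma adjusted p = 0.248), and the probe ranked 38 from the bottom of all tested. Without the cKO mouse of litter 2 the difference was -3.34 and limma's adjusted p was 0.0390, the only setting in which any probe of the family passed. The probe A_52_P981257 read 6.15 and 6.55 in cKO skin, against 6.14 and 6.45 in control skin, and the genotypes overlapped. Its difference was 0.05 ± 0.19 (SE, 95% interval -0.46 to 0.57, limma adjusted p = 0.920). The gap between the first and the second probe was -9.25 and -7.69 in cKO skin and -5.91 and -6.21 in control skin, a change of -2.41 (exact permutation p = 0.333, two-sided, the smallest possible). Which of the 2 probes follows the Sprr2a transcripts was not tested.

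**Figure D1:**
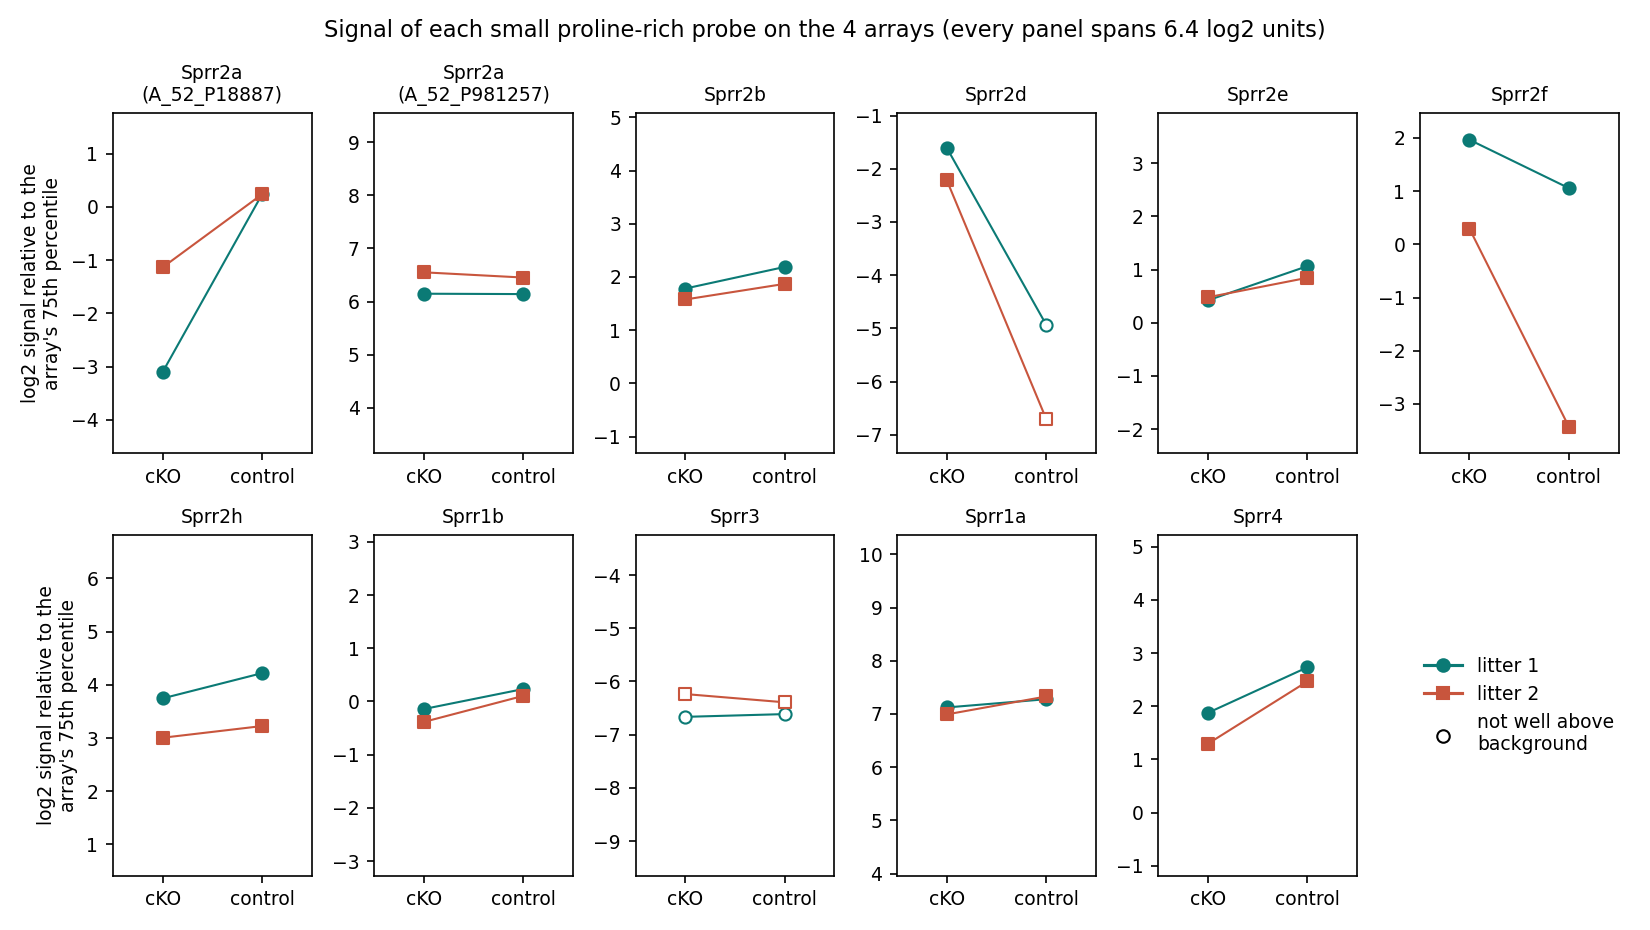
Level of each family probe on each of the 4 arrays (log2 of processed signal relative to the array's 75th percentile), cKO left of control, with a line joining the mice of a litter (circle litter 1, square litter 2) and open symbols for values not well above background. Sprr2d at -1.60 and -2.21 in cKO skin stands clear of its 2 open control values at -4.93 and -6.70, whereas the Sprr2f values of the genotypes overlap.

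The Sprr2 probes within the proline-rich repeats differed between genotypes by up to 0.50 in size on the log2 scale. Sprr2e read 0.42 and 0.48 in cKO skin, against 1.06 and 0.84 in control skin, and was lower in both cKO mice. The difference of -0.50 ± 0.11 (SE, 95% interval -0.81 to -0.20, limma adjusted p = 0.190) put cKO signal at 70.5% of control. Sprr2b read 1.78 and 1.58 in cKO skin, against 2.19 and 1.87 in control skin. Its genotypes did not overlap, by a margin of 0.09, and the difference was -0.35 ± 0.15 (SE, limma adjusted p = 0.382). These 2 probes share a long run of sequence, and whether they also read each other's transcripts was not tested.

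The other 3 probes, for genes outside the 10, are of the same repeat type. Sprr2k differed by -0.15 ± 0.10, Sprr2j-ps, an annotated pseudogene, by -0.32 ± 0.20 and Sprr2g by 0.19 ± 0.18 (SE), with limma adjusted p of 0.533, 0.504 and 0.674. All 3 were well above background on every array, and Sprr2k alone did not overlap between genotypes. Over the 5 repeat-type probes the differences ran from -0.50 to 0.19 with a median of -0.32. Over the 8 tested probes outside the repeats they ran from -2.36 to 3.91 with a median of -0.30 and a median size of 0.72. Of those 8, Sprr1b, Sprr2h, Sprr1a and the second Sprr2a probe lay within the range of the repeat-type probes.

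**Figure D2:**
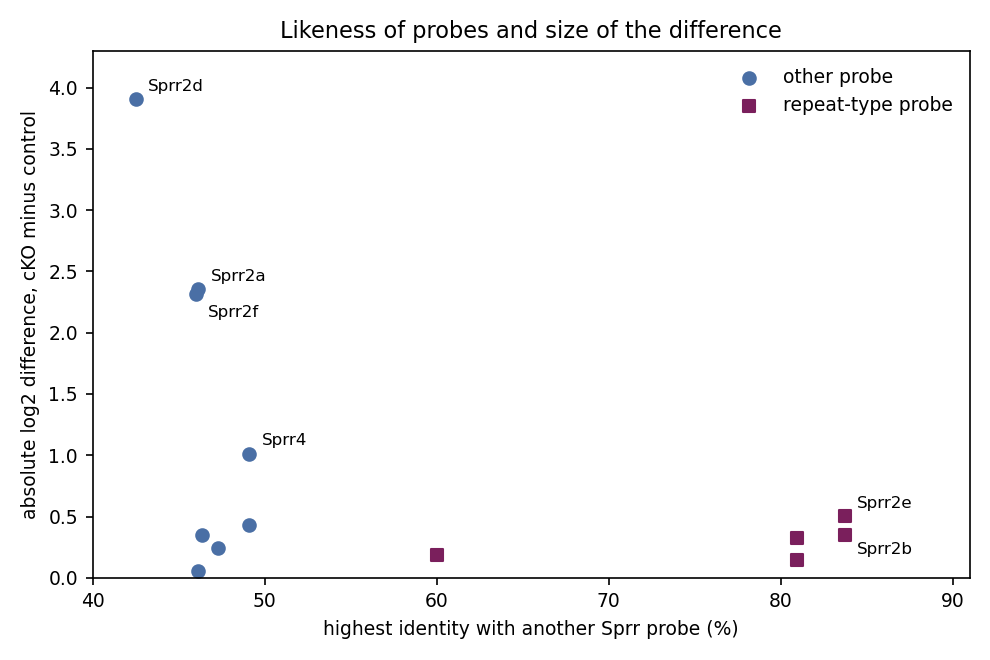
Highest identity of each tested family probe with another family probe (x axis, percent) against the size of its log2 difference, cKO minus control (y axis), with repeat-type probes as squares. The 5 repeat-type probes all lie at or below 0.50, while Sprr2d at 3.91 (measured, with controls not well above background) has the lowest likeness to any other probe. Over the 13 probes Pearson's r was -0.46 and Spearman's rho -0.37, as a description, since all probes share the same 4 arrays.

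Sprr2h, another Sprr2 gene, varied with litter more than with genotype. Its probe read 3.75 and 3.01 in cKO skin, against 4.22 and 3.23 in control skin, and the genotypes overlapped. The cKO mouse was the lower one in each litter, by 0.47 and 0.22. The difference of -0.35 ± 0.43 (SE) had a limma adjusted p of 0.745.

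The Sprr1 genes encode the cornifins, and both had slightly lower signal in cKO skin. Sprr1b read -0.14 and -0.38 in cKO skin, against 0.23 and 0.11 in control skin. Its genotypes did not overlap, and the difference was -0.43 ± 0.13 (SE, 95% interval -0.77 to -0.10, limma adjusted p = 0.252). Sprr1a, which is also known as a gene induced in injured neurons, read 7.12 and 6.99 in cKO skin, against 7.28 and 7.33 in control skin. Its difference was -0.25 ± 0.10 (SE, 95% interval -0.50 to 0.01, limma adjusted p = 0.341), with processed signals of 107597 and 98929 in cKO skin against 116522 and 125927 in control skin. None of these spots carried the saturation flag.

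Sprr4, a single-copy member that is known in human skin to respond to ultraviolet light, was lower in both cKO mice, and by a similar amount in each litter. Its probe (chr3:92304195-92304254) read 1.88 and 1.30 in cKO skin, against 2.73 and 2.47 in control skin. All 4 values were well above background and the genotypes were 0.59 apart. The difference was -1.01 ± 0.23 (SE, 95% interval -1.63 to -0.39), which put cKO signal at 49.5% of control, and limma's adjusted p was 0.194. It was -0.86 in litter 1 and -1.17 in litter 2.

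Sprr3, typical of oral and oesophageal epithelium, was not well above background on any array. Its processed signals were 7.61 and 10.3 in cKO skin and 7.68 and 9.34 in control skin, and it was not tested. Of the other markers of oral and forestomach epithelium, Krt4 and Krt76 had no probe that met the filter for testing. Krt13, Sbsn and Krt84 were well above background on all 4 arrays and differed by -0.54 ± 0.10, 0.26 ± 0.12 and 0.20 ± 0.08 (SE), none past limma's adjusted threshold.

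**Figure D3:**
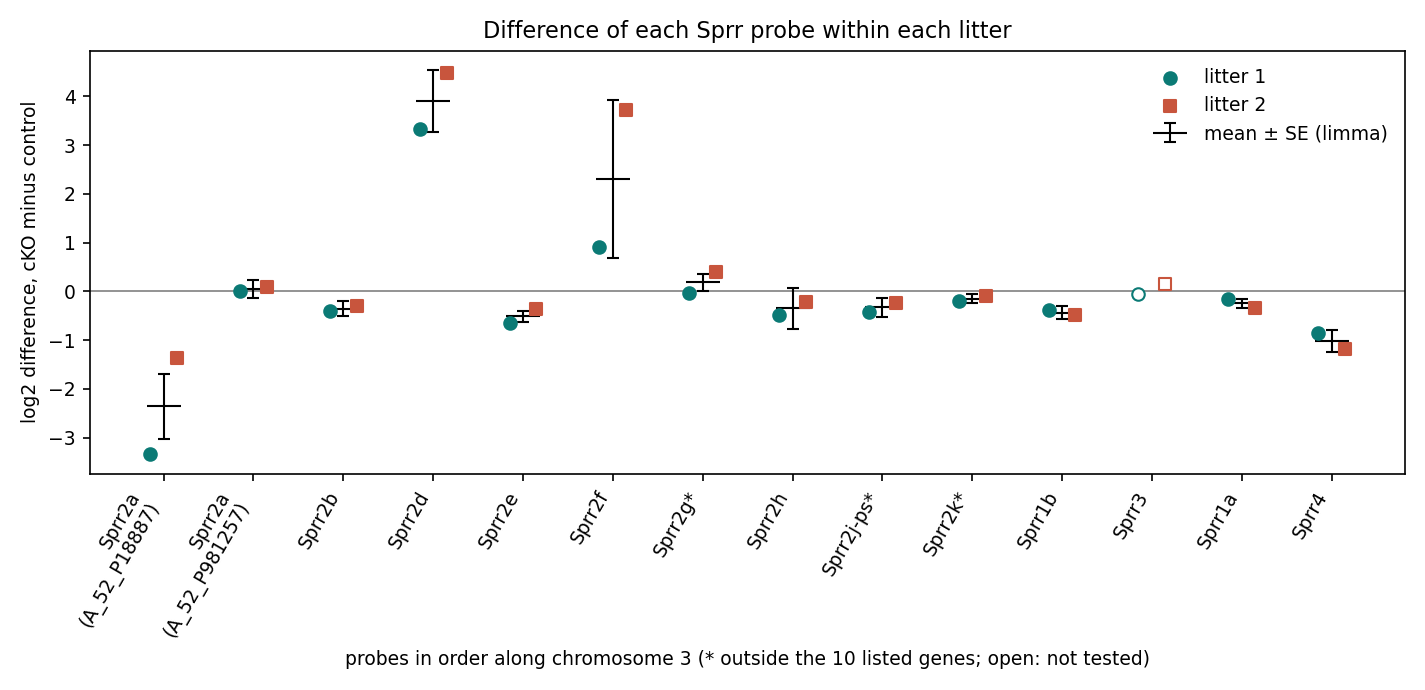
Log2 difference, cKO minus control (y axis), of the 14 small proline-rich probes in order along the chromosome (x axis), as the limma mean with its SE (cross and bar) and within litter 1 (circle) and litter 2 (square), with Sprr3 open since it was not tested. Sprr2d (3.32 and 4.49) and the first Sprr2a probe (-3.34 and -1.37) lie on opposite sides of 0, and the SE of Sprr2f (1.62) is the widest.

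Across the 10 tested probes, 7 were lower and 3 higher in cKO skin within both litters, against 33.8% of all tested probes lower and 37.6% higher in both. The genotypes did not overlap for 6 probes that were lower and 1 that was higher, against 22.6% and 25.8% of all tested probes. Both directions together gave 7 of 10, against 48.4%. A difference of at least 2-fold was seen for 2 probes upward and 2 downward, against 0.559% and 0.992% of all tested probes. Of the 2 upward, Sprr2d was tested only because both of its cKO arrays were well above background. It was also the higher probe without overlap. Sprr2f, the other, rested on the control mouse of litter 2. The median over the 10 probes was -0.35 (-0.39 in litter 1 and -0.32 in litter 2), against 0.01 over all tested probes. These shares describe a list of neighbouring, similar genes and are not a test of the family.

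**Figure D4:**
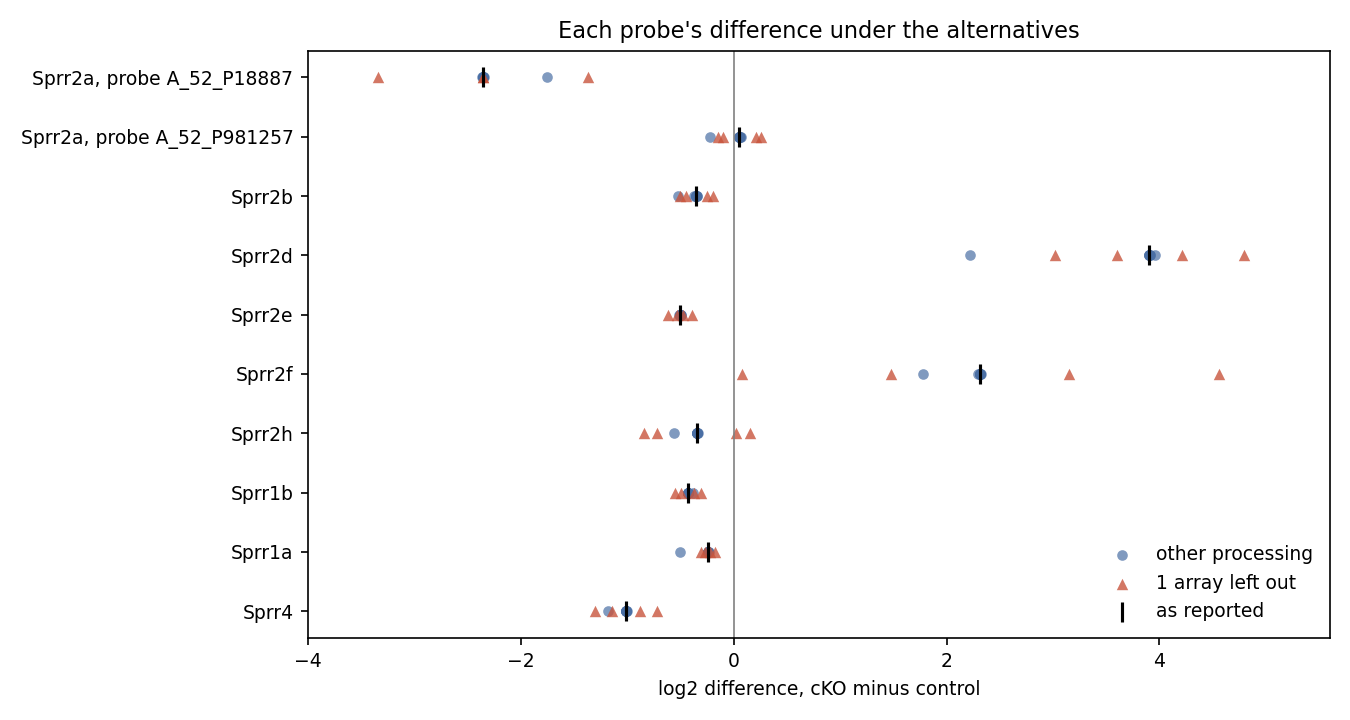
Log2 difference of each tested family probe, cKO minus control, as reported (bar), under other processing (dots) and with 1 array left out (triangles). Sprr2d stays between 2.22 and 4.79, while Sprr2f runs from 0.07 to 4.56.

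The promoters of the 10 genes were matched in RefSeq (GRCm38.p6, 250 bases before to 50 after the start, Sprr2a as Sprr2a1). The stretch of 200 bases before the start is shown for Sprr2d, Sprr2e and Sprr2f, because these neighbours gave different readings on the arrays. Capitals mark matches to AP-1 (TGANTCA), the octamer (ATGCAAA, here on the opposite strand) and the antioxidant response element (TGACNNNGC).
Sprr2d, chr3:92338940-92339139: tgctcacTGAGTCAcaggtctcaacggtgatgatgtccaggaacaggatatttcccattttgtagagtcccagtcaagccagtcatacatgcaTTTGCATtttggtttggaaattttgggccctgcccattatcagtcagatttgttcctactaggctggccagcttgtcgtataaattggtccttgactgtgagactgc
Sprr2e, chr3:92351943-92352142: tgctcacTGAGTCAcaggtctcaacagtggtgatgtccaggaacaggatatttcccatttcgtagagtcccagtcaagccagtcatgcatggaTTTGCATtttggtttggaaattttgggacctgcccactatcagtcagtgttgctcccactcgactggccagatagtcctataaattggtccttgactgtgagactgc
Sprr2f, chr3:92364987-92365186: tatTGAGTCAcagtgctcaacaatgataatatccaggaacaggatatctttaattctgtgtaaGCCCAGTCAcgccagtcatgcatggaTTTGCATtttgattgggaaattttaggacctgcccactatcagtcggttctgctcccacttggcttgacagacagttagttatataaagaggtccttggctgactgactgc
Sprr2d and Sprr2e were the same at 184 of 200 bases (92.0%), Sprr2e and Sprr2f at 78.4% of the aligned bases, and Sprr2d and Sprr2f at 75.5%. Counted from the start of transcription, an AP-1 match lay at -193 in both Sprr2d and Sprr2e and at -197 in Sprr2f. The only antioxidant response element match among these 3 genes lay at -137 in Sprr2f.

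Over both strands, AP-1 letters were found in 7 of the 10 promoters, against 7.81% of all 32851 promoters in the table, and octamer letters in 5 of 10, against 4.63%. KLF letters (CACCC) and ETS letters (GGAAG) were found in 5 of 10 each, against 57.5% and 71.4%. The antioxidant response element was matched in 2 of 10, against 12.4%, and in Sprr1a it overlapped an AP-1 match. GRHL letters (ACCGGTT) were found in 0 of 10, against 1.02%. The genes with an AP-1 match were Sprr2b, Sprr2d, Sprr2e, Sprr2f, Sprr2h, Sprr1b and Sprr1a, and those with an octamer were the 5 Sprr2 genes among them. Between these 5, the 200 bases before the start were 63.3% to 92.0% alike. Their octamers lay at -107 to -111 and their AP-1 matches at -193 to -198, so the counts are not of independent promoters. Both sets of letters were found for Sprr2d, whose probe was higher in cKO skin, and for Sprr2e, whose probe was lower. Whether the letters bear on these readings was not tested.

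The factors that bind such letters were compared from a list of 31 genes known to act on small proline-rich genes, of which 29 were tested. None passed limma's adjusted threshold (lowest adjusted p = 0.138), and the median was 0.03. Within both litters 11 were higher and 11 lower, near the 37.6% and 33.8% of all tested probes. Elf3, an epithelial ETS factor, was not well above background in control skin. The lower limit of its fold, cKO over control, taken as for Sprr2d, was 1.56. Junb, an AP-1 subunit, differed by -0.42 ± 0.10 (SE), Fos, another subunit, by -0.43 ± 0.33, and Ovol1, an epidermal zinc finger repressor, by -0.50 ± 0.23. Pou2f3, an octamer-binding factor of the epidermis, was not tested. Pou3f1, of the same POU group, was tested and differed by 0.35 ± 0.09 (SE, limma adjusted p = 0.225).

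Of 13 NRF2 target genes, all tested, 7 were lower and 4 higher in cKO skin in both litters, against 33.8% and 37.6% of all tested probes. Their median was -0.18 and none was past the adjusted threshold. The largest differences were downward, while Nqo1 differed upward by nearly as much as Gclm, at 0.50 ± 0.09 (SE, limma adjusted p = 0.154). Slc7a11, the cystine importer, differed by -1.95 ± 0.20 (SE, limma adjusted p = 0.0759), Srxn1, which repairs peroxiredoxins, by -0.87 ± 0.12, Hmox1, which degrades haem, by -0.54 ± 0.11 and Gclm, a subunit of the glutathione-synthesising ligase, by -0.51 ± 0.09. Sprr2d was higher in the same cKO mice, and whether NRF2 bears on its signal here was not tested.

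Transcripts of other cornified envelope proteins, to which small proline-rich proteins are joined, were set beside the family. Of 32 tested, 20 were higher and 8 lower in both litters, against 37.6% and 33.8% of all tested probes, and the median difference was 0.31, from 0.23 in litter 1 and 0.45 in litter 2. Of the 32, 0 passed limma's adjusted threshold. Lce1 genes made up much of the higher count, and no Lce1 gene was lower in both litters. These counts describe a list with many related genes and are not a test of it. Flg, the filaggrin gene, differed by 1.54 ± 0.27 (SE), Lce1g by 1.48 ± 0.23 and Lce1e by 1.20 ± 0.23, with limma adjusted p of 0.143, 0.127 and 0.155. Lce3c, a late cornified envelope gene, differed by -2.91 ± 0.29 (adjusted p = 0.0712). Loricrin (Lor), the main partner, differed by 0.24 ± 0.12 and involucrin (Ivl) by -0.15 ± 0.09.

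Among 5 tested transglutaminases, 3 were higher and 2 lower in both litters, against 37.6% and 33.8% of all tested probes. None was past the adjusted threshold. Tgm3, which cross-links small proline-rich proteins in the upper epidermis, differed by -0.45 ± 0.10 (SE), Tgm1, its membrane-bound counterpart, by -0.13 ± 0.10 and Tgm5 by 0.38 ± 0.10, with limma adjusted p of 0.195, 0.613 and 0.224. Tgm2, the broadly expressed member, differed by 0.41 ± 0.09 and Tgm6 by 0.31 ± 0.11.

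Genes of the stressed epidermis were also set beside the family. Of 18 tested, 12 were higher and 4 lower in cKO skin in both litters, against 37.6% and 33.8% of all tested probes. Their median was 0.33 and none was past the adjusted threshold. Il1f6, an epidermal interleukin-1 family cytokine, differed by 2.31 ± 0.22 (SE, limma adjusted p = 0.0697), and Il1f8, a relative, by 1.20 ± 0.22. Stfa3, a cysteine protease inhibitor, differed by 1.40 ± 0.42 and Serpinb3b by 1.28 ± 0.42. Krt6a, a keratin of wounded and hyperproliferative skin, differed by 0.80 ± 0.13 (adjusted p = 0.135) and Krt6b by 0.68 ± 0.15. The 4 that were lower in both litters were S100a7a at -0.72 ± 0.14, S100a9 at -0.62 ± 0.28, S100a8 at -0.27 ± 0.13 and Krt17 at -0.09 ± 0.09.

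**Figure D5:**
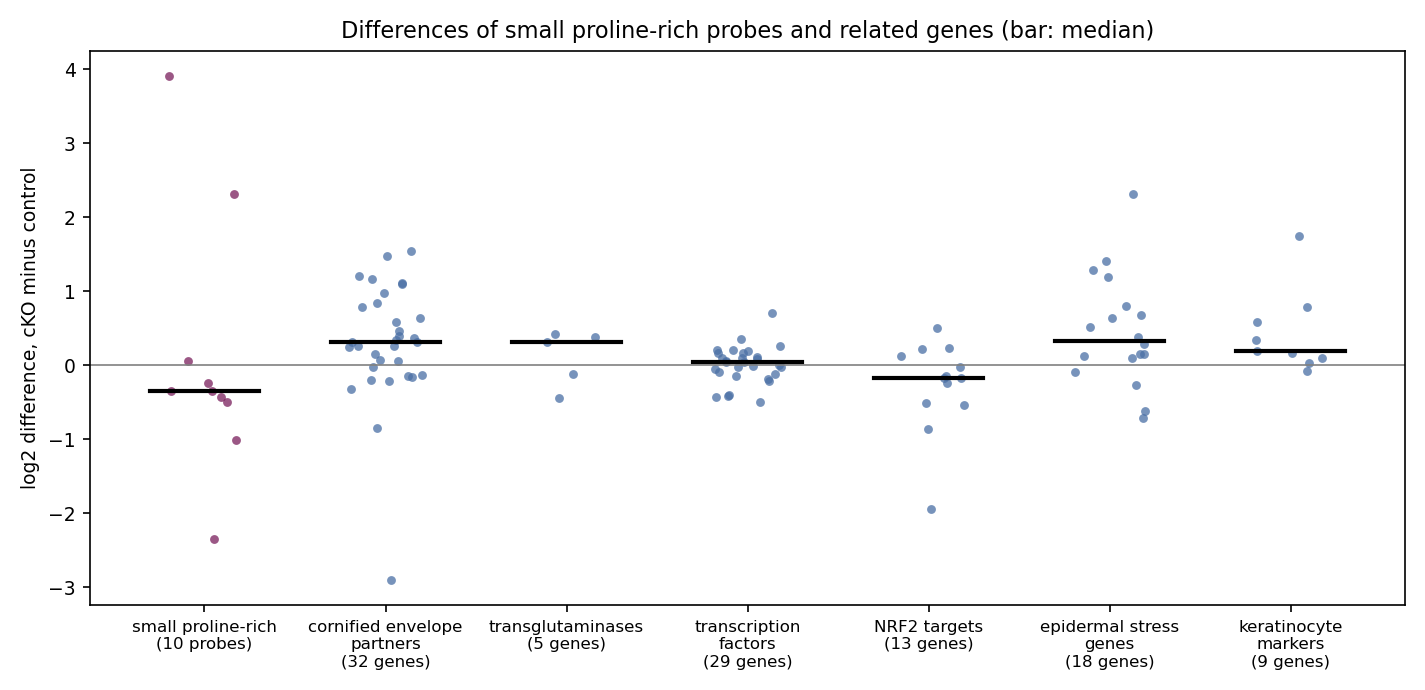
Log2 difference, cKO minus control, of every tested probe or gene in the family and in the related lists (points), with the median of each list (bar) and a line at 0. The family's median of -0.35 lies below 0 and that of the cornified envelope partners, many of them Lce1 genes, lies above it at 0.31.

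Cell type markers differed between genotypes as well, though none passed limma's adjusted threshold (lowest adjusted p = 0.0697). Of all tested probes, 37.6% were higher and 33.8% lower in both litters, the measure used for the counts below. All 9 keratinocyte markers were tested and 7 were higher in both litters, with a summed level (in multiples of the 75th percentile signal) of 936 to 980 in cKO skin, against 798 to 824 in control skin. Krt1, a suprabasal keratin, differed by 1.74 ± 0.30 (SE), and Krt14 by 0.19 ± 0.09. Hair shaft markers were higher for 2 and lower for 4 of 8 (Krt36 by 0.998 ± 0.11), summing to 2119 to 2220 in cKO skin, against 2049 to 2295 in control skin. Inner root sheath markers were lower in both litters for 5 of 6 (Krt26 by -0.93 ± 0.09), summing to 2016 to 2088 in cKO skin, against 2288 to 2387 in control skin. Muscle markers were higher for 12 of 14, with sums of 917 to 953 in cKO skin and 640 to 831 in control skin, and Mb differed by 0.84 ± 0.11. Fat markers were higher for 9 of 12, with sums of 421 to 464 in cKO skin and 290 to 389 in control skin, and Retn differed by 1.68 ± 0.15. T cell markers were lower for 7 of 8, with sums of 0.882 to 1.02 in cKO skin and 1.34 to 1.38 in control skin, and Cd247 differed by -0.86 ± 0.15. Red cell markers were lower for 5 of 5 tested, with sums of 103 to 173 in cKO skin and 148 to 198 in control skin, and Slc4a1 differed by -0.92 ± 0.10. Macrophage and dendritic cell markers were higher for 5 of 7, with sums of 22.8 to 25.2 in cKO skin and 13.9 to 21.0 in control skin, and Lyz2 differed by 0.57 ± 0.24. Of 4 sebaceous markers tested, 1 had the same sign in both litters, Fads2 at -0.56 ± 0.10. Of the neutrophil markers only Camp was tested, at 0.75 ± 0.28, and 5 had no probe that met the filter for testing. The part of these shifts in the values of the family was not tested.

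The genes whose 4-array profiles lay nearest to those of the family were found for Sprr2f, Sprr2h and Sprr4, the members whose brightest probe was well above background on all 4 arrays and spanned at least 1 log2 unit. For Sprr2a the brightest probe is A_52_P981257, which spanned less, so the dimmer Sprr2a probe was not compared. Likeness was the Euclidean distance between centred profiles, over 19033 named probes and only 4 arrays. Nearest to Sprr2f were Serpina3b at 1.56, Wdfy1 at 2.11 and Ptprv at 2.42, all farther off than the nearest profiles of the other two. Among those nearest to Sprr2h were Hba-ps4 at 0.0976 and Ago4 at 0.135. Nearest to Sprr4 were Myo6 at 0.103, Ppargc1a at 0.169 and Olfr114 at 0.185.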

How the data were processed

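The deposited scanner files hold, per the file headers, Agilent Feature Extraction output with a processed signal intensity for each spot, background-subtracted, and flags for signal well above background, saturation and outliers. The submitters' processing notes name version 10.5 and the headers version 10.7.3.1. The authors' deposited series table holds log2 values centred per probe (correlation with the scanner values at least 0.99999, column medians of -0.06 and 0.08 for cKO replicates 1 and 2 and -0.08 and 0.06 for control replicates 1 and 2) and was an alternative. All arrays lay on 1 slide with 1 scan time, so these could not be tested as batches.

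Here each processed signal was turned to log2 and the 75th percentile of its array subtracted. Control spots and 51 to 66 outlier spots per array were dropped, and replicate spots of a probe were averaged. Tested probes had signal well above background in both cKO mice or in both controls. Genotypes were compared probe by probe with limma 3.58.1 in R 4.3.3, two-sided, Benjamini-Hochberg adjusted over 22188 probes, threshold 0.05. Names came from accessions for 26690 probes, symbols for 5189, synonyms for 952 and the file for 8343. Probe positions are the files' (mm9), without exon annotation.

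Per the labels, same-numbered mice were litter mates. Their deviations from the group means correlated across probes (Pearson 0.365, Spearman 0.426). Litter as a block was an alternative, as were normexp correction, other scalings, other filters, 1 probe per gene, a trended prior and leaving out each array. On simulated data for this comparison (22188 probes, 200 changed), 23.6% of 2-fold and 83.7% of 4-fold changes were recovered, with 4.96% false calls. The simulated arrays held no litter effect. These shares are averages over probes and do not hold for family probes with an SE far above the median.

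The members and lists were chosen with earlier results of these data known. All members were named. Of each other list, up to 4 genes with the largest difference of the same sign in both litters qualified; the text prints all of these for the related lists and the first for each cell type list. The 3 most alike profiles were named, except 1 gene that is not reported here. Lor, Ivl, Tgm1, Krt6a, Krt6b, Krt14, Nqo1 and Pou3f1 were added for their known roles after values were seen. The 4 stress genes lower in both litters were added for their direction, also after values were seen.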

Additional observations from a re-analysis of the deposited data

How the results depend on the processing

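The count of probes past the threshold on the whole array, 35 as reported, was 0 with normexp background correction, 0 without a filter on dim probes, 13 with probes well above background on all 4 arrays, 53 with 1 probe per gene and 193 with a prior variance that follows intensity. With the litter as a replicate block (paired fit) it was 0, with a lowest adjusted p of 0.111 for the family. In that fit 7 of 10 family probes had an unadjusted p under 0.05, against 5137 of all 22188 tested probes. The number over all probes was 3407 in the fit as reported. Leaving out 1 array gave 0 to 50: 0 without either control, 50 without cKO replicate 1 and 29 without cKO replicate 2. The count of family probes past the threshold was 0 to 1 on leaving out 1 array and 0 in every other setting run. The median over the family was -0.50 with normexp, which moved the median of all probes to 0.10, and -0.50 to -0.21 on leaving out 1 array. The second Sprr2a probe, 0.05 as reported, turned to -0.22 with normexp and ran from -0.15 (without cKO replicate 2) to 0.25 on leaving out 1 array, with -0.10 without control replicate 1. Sprr2h, -0.35 as reported, ran from -0.84 to 0.15 (without control replicate 1), with 0.02 without cKO replicate 2. Without single arrays, each fit had 1 residual degree of freedom among the remaining samples, and the lone array was assumed to vary like the other group. The causes were not tested. Sprr2d did not enter the fit limited to probes well above background on all arrays. Low signal limits Sprr2d in controls and Sprr3 throughout, and 2 mice per genotype limit all adjusted values.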

Other observations

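Within a genotype, the litters differed by widely different amounts from probe to probe. The Sprr2a probe A_52_P18887 differed 3.92-fold between the 2 cKO mice while the 2 controls were almost equal, at 0.24 each. Sprr2d differed 1.52-fold between the cKO mice and 3.41-fold between the controls, whose values were not well above background. Sprr2h was lower in litter 2 than in litter 1 in both genotypes, 1.67-fold in cKO skin and 1.99-fold in control skin. Sprr1a differed by only 1.09-fold between the cKO mice and 1.04-fold between the controls.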
